A study of Mus musculus with 16 samples.

Results

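The genes described are 10 genes of fast skeletal muscle, Ckm, Acta1, Tnnc2, Tnnt3, Tnni2, Myh1, Myh4, Atp2a1, Mb and Mylpf, followed through white fat of mice. They were taken by name from a table of 14023 genes, and all 10 were found in it. They were chosen by their measured levels in these same libraries, among them high FPKM in K107R fat, so their own values are given as a description, with no test. The fat came from mice that were either homozygous for K107R in PPARg, where arginine replaces the lysine that can carry a SUMO group, or wild type (WT) at that position. All mice had 10 weeks of chow and then 19 weeks of a high-fat diet (60% of calories). In the treatment week, which was 1 week long, they were gavaged with the PPARg agonist rosiglitazone (10 mg/kg) or with vehicle alone (1% methylcellulose). Epididymal fat (eWAT) and inguinal fat (iWAT) of K107R rosiglitazone, K107R vehicle, WT rosiglitazone and WT vehicle mice make 8 groups of 2 libraries, numbered 1 and 2. Sex, strain and the number of mice behind a library are not given in the sources used here, nor is whether the 2 libraries of a group came from separate mice, so the spread between them may be technical.

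Fast skeletal muscle fibres contract by the sliding of actin filaments, which carry the troponin switch, along myosin. Calcium released from the sarcoplasmic reticulum opens the switch, a calcium pump takes the calcium back, and creatine kinase refills ATP at the filaments. Inguinal fat is dissected beside skeletal muscle of the body wall and limb, and beige fat cells are known to share some genes of calcium and creatine cycling with muscle. In a whole depot, more cells of a type and more RNA per cell cannot be told apart.

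The promoters of the 2 fast myosin genes and of skeletal actin are shown because these 3 genes differed in pattern below. Each stretch runs 5′ to 3′ from 250 to 51 bases before the start site (RefSeq, GRCm38.p6), in lower case, with capitals for matches to MEF2 and CArG, motifs known from muscle genes.
Myh1, chr11:67199852-67200051, plus strand: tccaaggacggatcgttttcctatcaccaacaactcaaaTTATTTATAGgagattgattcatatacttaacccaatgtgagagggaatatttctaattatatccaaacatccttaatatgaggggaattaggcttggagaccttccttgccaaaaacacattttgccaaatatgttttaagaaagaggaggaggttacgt
Myh4, chr11:67237562-67237761, plus strand: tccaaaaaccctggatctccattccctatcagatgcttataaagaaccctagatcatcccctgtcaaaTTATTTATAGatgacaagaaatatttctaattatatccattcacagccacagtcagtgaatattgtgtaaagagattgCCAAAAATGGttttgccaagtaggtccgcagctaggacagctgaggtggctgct
Acta1, chr8:123894826-123895025, minus strand: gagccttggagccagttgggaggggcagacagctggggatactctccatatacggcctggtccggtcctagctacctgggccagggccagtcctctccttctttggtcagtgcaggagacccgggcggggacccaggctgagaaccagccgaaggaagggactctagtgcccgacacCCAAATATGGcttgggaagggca

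Of the 10 genes, 8 were matched in the RefSeq promoter table, with 10 windows of 250 bases in all, since Mb had 3. Tnnt3 and Tnni2 were not matched. On both strands, a MEF2 match stood in 2 of the 10 windows (Myh1 and Myh4), and in 2.92% of 32851 windows of all genes. CArG stood in 2 windows (Acta1 and Myh4), against 1.47% of all windows. The motif CATTCC, called MCAT, stood in 3 windows (Acta1, Myh1 and Myh4), against 12.6% of all. The E-box CANNTG stood in 9 windows of 7 genes, against 66.2% of all windows. Of these 9, 3 are of Mb, and 2 of those overlap, so some E-boxes are counted more than once. These are matches of letters and say nothing about which factor binds.

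Levels are FPKM, read counts scaled by the authors for transcript length and for the size of the library, so that genes can be compared with each other. No counts were at hand and the depth of each library is unknown. Summed FPKM was between 411746 and 596519 per library. The number 2 libraries stood apart, with a median ratio of number 2 to number 1 over the 8 groups of 0.0470 for Actb, cytoplasmic actin, and 0.729 for the median of all tested genes. The shift was unequal between groups, with Actb ratios from 0.0282 to 0.643. The eWAT K107R vehicle libraries also stood apart. There 5 secreted genes of the epididymis summed to between 2776 and 2879 FPKM, against at most 4.49 FPKM in any other library. All 16 fat cell genes looked at, among them Adipoq and Plin1, were at 1 FPKM or more in both libraries of each group, as in the tissue the labels name.

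The clearest difference lay in iWAT without the drug. All 10 genes were higher in both K107R vehicle libraries than in both WT vehicle libraries of iWAT, a separation in this direction that 5.44% of the 13669 tested genes showed. Fold differences of the group means ran from 1.97 for Acta1 to 39.8 for Ckm. In the same comparison of eWAT, 9 of 10 were higher without overlap, all except Tnni2, against 14.1% of tested genes. With rosiglitazone the genotypes differed in iWAT for 8 of 10, all except Acta1 and Mylpf (9.41% of tested genes), and in eWAT 0 were higher and 2, Mb and Mylpf, were lower (16.4%). Since such values chose the genes, these counts are not read as support.

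**Figure D1:**
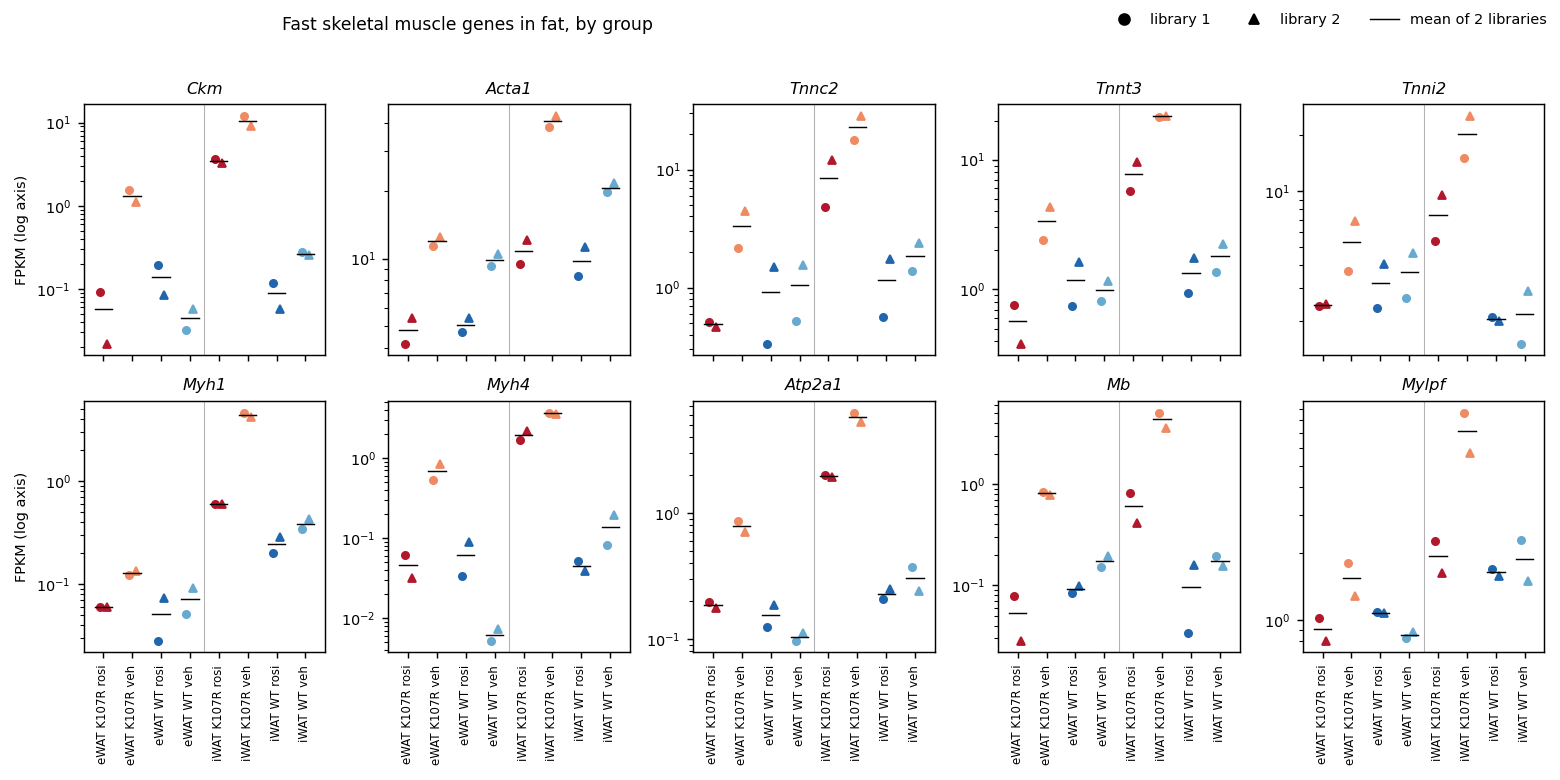
FPKM of each of the 10 genes (log axis) in the 8 groups, with a circle for library 1, a triangle for library 2 and a line for their mean. For all 10 genes the 2 iWAT K107R vehicle libraries are the highest of the 16, and for Ckm they sit at 12.1 and 9.03 FPKM.

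Ckm, muscle creatine kinase (chromosome 7, 19404776 to 19422841, GRCm38, plus strand), showed the pattern most fully. In eWAT it was at 0.0911 and 0.0216 FPKM in K107R rosiglitazone and 1.54 and 1.11 in K107R vehicle, against 0.195 and 0.0830 in WT rosiglitazone and 0.0319 and 0.0566 in WT vehicle. In iWAT it was at 3.62 and 3.30 FPKM in K107R rosiglitazone and 12.1 and 9.03 in K107R vehicle, against 0.119 and 0.0575 in WT rosiglitazone and 0.277 and 0.254 in WT vehicle. It thus reached 1 FPKM in 3 of the 4 K107R groups and in no WT library. In eWAT the fold of the K107R mean over the WT mean was 29.9 with vehicle, and the difference of log2(FPKM + 1) was 1.15 ± 0.14 (moderated SE), while with rosiglitazone the libraries of the genotypes overlapped. In iWAT the fold was 39.3 with rosiglitazone (log2 2.04 ± 0.14) and 39.8 with vehicle (log2 3.18 ± 0.14).

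Mb, myoglobin, the oxygen store of muscle (chromosome 15, 77015487 to 77050670, minus strand), was at 0.0780 and 0.0283 FPKM in eWAT of K107R rosiglitazone and 0.841 and 0.776 in K107R vehicle, against 0.0840 and 0.0983 in WT rosiglitazone and 0.151 and 0.196 in WT vehicle. In iWAT, Mb was at 0.809 and 0.408 FPKM in K107R rosiglitazone and 5.07 and 3.60 in K107R vehicle, against 0.0335 and 0.159 in WT rosiglitazone and 0.196 and 0.155 in WT vehicle. Both K107R vehicle groups stood above their WT vehicle groups, by 4.67-fold in eWAT and 24.8-fold in iWAT. The mean of Mb in eWAT K107R vehicle (0.809 FPKM) stood above that in iWAT K107R rosiglitazone (0.609 FPKM), with overlap of their libraries. It passed the filter on low values through the 2 iWAT K107R vehicle libraries alone, as did Myh1.

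Acta1, the actin of skeletal muscle thin filaments (chromosome 8, 123891769 to 123894751, minus strand), differed from the other 9 in being above 4 FPKM in all 16 libraries. In eWAT it was at 4.17 and 5.42 FPKM in K107R rosiglitazone and 11.4 and 12.4 in K107R vehicle, against 4.70 and 5.44 in WT rosiglitazone and 9.27 and 10.5 in WT vehicle. In iWAT it was at 9.48 and 12.1 FPKM in K107R rosiglitazone and 38.3 and 43.1 in K107R vehicle, against 8.36 and 11.2 in WT rosiglitazone and 19.7 and 21.6 in WT vehicle. In each depot and genotype both rosiglitazone libraries were lower than both vehicle libraries, with ratios of the rosiglitazone mean to the vehicle mean of 0.402 in K107R eWAT, 0.513 in WT eWAT, 0.266 in K107R iWAT and 0.474 in WT iWAT. The genotypes differed without overlap with vehicle, by 1.20-fold in eWAT and 1.97-fold in iWAT, and overlapped with rosiglitazone. Its second highest group was iWAT WT vehicle, where Ckm was at 0.277 and 0.254 FPKM.

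The 3 fast troponins sit on the thin filament. Tnnc2, the calcium-binding subunit (chromosome 2, 164777161 to 164779967, minus strand), was at 0.513 and 0.464 FPKM in eWAT of K107R rosiglitazone and 2.14 and 4.45 in K107R vehicle, against 0.332 and 1.499 in WT rosiglitazone and 0.524 and 1.56 in WT vehicle. In iWAT, Tnnc2 was at 4.81 and 12.1 FPKM in K107R rosiglitazone and 17.6 and 28.5 in K107R vehicle, against 0.566 and 1.74 in WT rosiglitazone and 1.37 and 2.36 in WT vehicle. The genotypes did not overlap in iWAT under either treatment, nor in eWAT with vehicle, though the number 2 library was the higher in 7 of 8 groups, with a median ratio of 2.30 to number 1.

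Tnnt3, which ties troponin to tropomyosin (chromosome 7, 142498836 to 142516009, plus strand), was at 0.756 and 0.380 FPKM in eWAT of K107R rosiglitazone and 2.40 and 4.29 in K107R vehicle, against 0.742 and 1.63 in WT rosiglitazone and 0.816 and 1.16 in WT vehicle. Its iWAT values were 5.78 and 9.61 FPKM in K107R rosiglitazone and 21.5 and 21.7 in K107R vehicle, against 0.937 and 1.75 in WT rosiglitazone and 1.37 and 2.25 in WT vehicle. The order of the groups was that of Tnnc2 at the top, and the fold over WT with vehicle was 3.38 in eWAT and 11.9 in iWAT (for Tnnc2, 3.16 and 12.3).

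Tnni2, the inhibitory subunit (chromosome 7, 142441808 to 142444410, plus strand), was above 1.5 FPKM in all libraries. In eWAT it was at 2.41 and 2.46 FPKM in K107R rosiglitazone and 3.71 and 6.91 in K107R vehicle, against 2.33 and 4.07 in WT rosiglitazone and 2.66 and 4.64 in WT vehicle. In iWAT it was at 5.41 and 9.52 FPKM in K107R rosiglitazone and 15.1 and 25.4 in K107R vehicle, against 2.09 and 1.9998 in WT rosiglitazone and 1.502 and 2.88 in WT vehicle. The iWAT genotypes stood apart under both treatments, and the eWAT vehicle groups overlapped, with a higher K107R value at each library number.

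The 2 fast myosin heavy chains, the motors of the thick filament, lie next to each other on chromosome 11. Myh4, the chain of the fastest (IIb) fibres (67238029 to 67260446, plus strand), was at 0.0614 and 0.0318 FPKM in eWAT of K107R rosiglitazone and 0.533 and 0.843 in K107R vehicle, against 0.0336 and 0.0885 in WT rosiglitazone and 0.00522 and 0.00723 in WT vehicle. In iWAT, Myh4 was at 1.68 and 2.19 FPKM in K107R rosiglitazone and 3.69 and 3.56 in K107R vehicle, against 0.0510 and 0.0384 in WT rosiglitazone and 0.0810 and 0.196 in WT vehicle. Both K107R iWAT groups and the K107R vehicle eWAT group stood above every WT library.

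Myh1, the chain of IIx fibres (67200052 to 67224575, plus strand), was at 0.0604 and 0.0606 FPKM in eWAT of K107R rosiglitazone and 0.123 and 0.136 in K107R vehicle, against 0.0283 and 0.0739 in WT rosiglitazone and 0.0514 and 0.0919 in WT vehicle. Its iWAT values were 0.606 and 0.601 FPKM in K107R rosiglitazone and 4.63 and 4.22 in K107R vehicle, against 0.200 and 0.289 in WT rosiglitazone and 0.341 and 0.434 in WT vehicle. The ratio of Myh1 to Myh4 was 1.26 and 1.19 in iWAT K107R vehicle but 0.361 and 0.274 in iWAT K107R rosiglitazone and 0.231 and 0.161 in eWAT K107R vehicle, with no overlap between these 3 groups. In the iWAT WT vehicle libraries it was 4.21 and 2.22. Of all stretches of 75 bases, the read length, in annotated transcripts of Myh1 and Myh4, 15.8% and 9.68% also occur in another gene, mostly a myosin of the same cluster. Their values are uncertain to that extent. For 7 of the other genes no stretch was shared, and for Acta1 0.394% was.

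Mylpf, the fast regulatory light chain of myosin (chromosome 7, 127208890 to 127214298, plus strand), was at 1.02 and 0.805 FPKM in eWAT of K107R rosiglitazone and 1.81 and 1.29 in K107R vehicle, against 1.09 and 1.07 in WT rosiglitazone and 0.827 and 0.886 in WT vehicle. Its iWAT values were 2.27 and 1.63 FPKM in K107R rosiglitazone and 8.68 and 5.72 in K107R vehicle, against 1.71 and 1.59 in WT rosiglitazone and 2.29 and 1.49 in WT vehicle. Here iWAT K107R vehicle stood alone, and K107R rosiglitazone overlapped both WT groups of iWAT.

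Atp2a1, the calcium pump of the fast sarcoplasmic reticulum (chromosome 7, 126445858 to 126463108, minus strand), was at 0.195 and 0.176 FPKM in eWAT of K107R rosiglitazone and 0.860 and 0.711 in K107R vehicle, against 0.124 and 0.185 in WT rosiglitazone and 0.0966 and 0.111 in WT vehicle. In iWAT, Atp2a1 was at 1.997 and 1.93 FPKM in K107R rosiglitazone and 6.25 and 5.28 in K107R vehicle, against 0.205 and 0.251 in WT rosiglitazone and 0.373 and 0.239 in WT vehicle. In the 6 libraries of the 3 high K107R groups Atp2a1 followed Ckm closely, with a ratio to Ckm between 0.517 and 0.641. In the other libraries, where both genes were low, the ratio ran from 0.639 to 8.14. Atp2a2, the pump of slow muscle and of other tissues, was between 22.9 and 53.8 FPKM across the 16 libraries.

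Rosiglitazone against vehicle asked how the levels stood after the drug. In K107R mice all 10 genes were lower with rosiglitazone, without overlap, in eWAT (12.3% of tested genes were lower in this way) and in iWAT (10.8%). The eWAT comparison rests on the K107R vehicle libraries that held the epididymis genes. Of these, Crisp1 differed there by a log2 of -8.38 ± 0.38 (SE), rosiglitazone minus vehicle. What part such tissue content had in the lower levels of the 10 genes was not tested. In K107R iWAT the ratio of the rosiglitazone mean to the vehicle mean was close for 5 genes, at 0.328 for Ckm, 0.341 for Atp2a1, 0.356 for Tnnt3, 0.368 for Tnnc2 and 0.369 for Tnni2. The other 5 ranged from 0.136 for Myh1 and 0.140 for Mb through 0.266 for Acta1 and 0.271 for Mylpf to 0.534 for Myh4. In K107R eWAT the ratio ran from 0.0426 for Ckm to 0.588 for Mylpf.

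In WT mice the differences were smaller and mixed. In iWAT 4 genes were lower with rosiglitazone without overlap, Ckm, Acta1, Myh1 and Myh4 (9.42% of tested genes). In eWAT 4 were higher, Ckm, Myh4, Atp2a1 and Mylpf (15.5%), and 2 were lower, Acta1 and Mb (11.3%). Except for Acta1 and Mylpf these WT eWAT levels were under 0.2 FPKM. The median log2 difference over the 10 genes, rosiglitazone minus vehicle, was -0.80 in K107R eWAT and -1.42 in K107R iWAT, against 0.02 in WT eWAT and -0.14 in WT iWAT, where the median over all tested genes was 0.17, 0.03, 0.03 and 0.03. The K107R response minus the WT response had a median of -0.68 over the 10 genes in eWAT and -1.15 in iWAT, beside 0.15 and 0.03 over all tested genes. The K107R eWAT values here also rest on the vehicle libraries that held the epididymis genes.

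The genes were also set against Ckm. The excess of a gene, its mean FPKM in K107R minus that in WT, was expressed as a percent of the excess of Ckm in eWAT vehicle, iWAT rosiglitazone and iWAT vehicle, in this order. For Atp2a1 the excess was 53.3%, 51.5% and 53.0%, and by library number it stayed between 49.8% and 57.4%. Tnnt3 had 184%, 188% and 192%, Tnnc2 176%, 217% and 206%, and Tnni2 130%, 161% and 175%. For these troponins the group means lay close, but the libraries of a group did not. In eWAT with vehicle the excess of Tnnc2 was 107.4% of that of Ckm by the number 1 libraries and 274% by number 2, that of Tnnt3 105% and 297%, and that of Tnni2 70.1% and 215%.

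The excess of Myh4 was 53.3%, 56.1% and 33.9% of that of Ckm, and by library number eWAT overlapped both iWAT comparisons, which stood apart. Mb had 49.7%, 15.2% and 40.5%, Mylpf 54.3%, 9.02% and 51.6%, and Acta1 158%, 30.3% and 195%. For these 3 both library numbers gave a lower percent in iWAT of rosiglitazone mice than in the other comparisons. Mylpf had 16.1% and 1.35% there by number 1 and number 2. For Myh1 the excess was 4.53%, 10.6% and 39.3%, without overlap by library number.

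**Figure D2:**
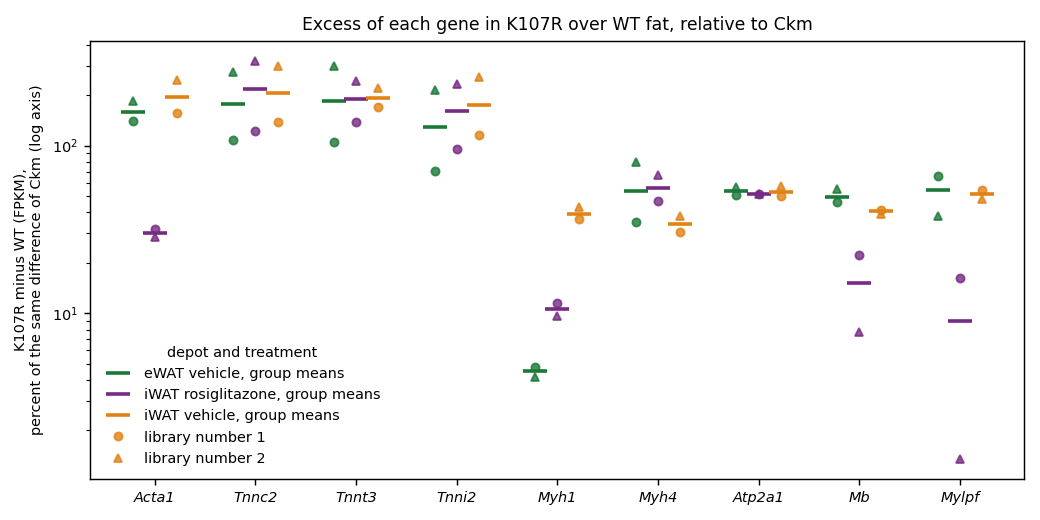
For 9 genes, the difference of FPKM between K107R and WT as a percent of that of Ckm (log axis), one colour for each of 3 comparisons, with a bar for the group means and a circle and a triangle for library numbers 1 and 2. Atp2a1 lies between 49.8% and 57.4% by library number, Tnnc2, Tnnt3 and Tnni2 spread widely between library numbers, and the means of Myh1 run from 4.53% to 39.3%.

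Between depots, all 10 genes were lower in eWAT than in iWAT without overlap in K107R rosiglitazone mice (16.5% of tested genes) and in K107R vehicle mice (12.6%). In WT vehicle mice 7 were lower (17.7%), and Tnnc2, Tnni2 and Mb overlapped. In WT rosiglitazone mice 4 were lower, Acta1, Myh1, Atp2a1 and Mylpf (20.8%), while Tnni2 was higher (25.3%). The median log2 difference, eWAT minus iWAT over the mean of the 4 groups, was -0.88 over the 10 genes and 0.10 over all tested genes.

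Other skeletal muscle genes, which the choice of the 10 did not name, were tested, though their lists were chosen with earlier results known. From 80 genes of the fast sarcomere, calcium release, energy supply, sarcomere structure and slow fibres, 34 were in the table and 32 passed the filter of 1 FPKM in 2 libraries. The rest, among them Myh2, Ttn, Neb and Ryr1, were not analysed here. Apobec2 and Mybpc2 passed the filter through the 2 iWAT K107R vehicle libraries alone, and Casq2 through the 2 iWAT WT vehicle libraries alone. Their calls in comparisons with those groups are thus not independent of the filter. In iWAT with vehicle, 5 of the 32 were higher in K107R and 1 was lower (limma with Benjamini-Hochberg adjustment, adjusted p under 0.05). Of all tested genes, 0.578% were called there. The log2 difference was positive for 22 and negative for 10, with a median of 0.26 over the 32, beside -0.06 over all tested genes. The count of higher genes was 8 with the replicate number as a block, 1 with the iWAT libraries alone and between 2 and 5 with 1 library left out.

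Those higher were Tcap, the cap of titin at the Z disc (4.20 and 9.27 FPKM in K107R vehicle, against 0.238 and 0.438 in WT vehicle; log2 2.45 ± 0.25 SE, adjusted p = 0.00149), and Apobec2, a muscle member of the deaminase family (2.39 and 2.43, against 0.429 and 0.554; 1.19 ± 0.09, adjusted p = 0.000159). Actn3, the actinin of fast fibres (log2 1.12, adjusted p = 0.0258), Eef1a2, the elongation factor of muscle and nerve (0.80, adjusted p = 0.0301), and Mybpc2, fast myosin-binding protein C (0.47, adjusted p = 0.0243), were higher as well. Of these, Tcap and Apobec2 were called whichever library was left out, and Tcap was lost with the iWAT libraries alone (adjusted p = 0.157). The limma calls of Actn3, Eef1a2 and Mybpc2 were lost with the iWAT libraries alone (adjusted p = 0.386, 0.126 and 0.31), after rescaling by median ratios (0.19, 0.187 and 0.332) and in 11, 12 and 9 of 16 omissions of 1 library. Casq2, the calsequestrin of slow and heart muscle, was lower (0.576 and 0.311 in K107R vehicle, against 1.54 and 1.18 in WT vehicle; log2 -0.71 ± 0.11, adjusted p = 0.0219), and was not called with the iWAT libraries alone (adjusted p = 0.356), with a pseudocount of 0.1 (0.053) or in 6 of 16 omissions.

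In iWAT with rosiglitazone, 2 of 32 were higher in K107R, Fbp2 and Actn3 (log2 0.83, adjusted p = 0.0283), and 2 were lower, Des (-0.89, adjusted p = 0.00457) and Casq2 (-0.48, adjusted p = 0.0398), where 4.13% of tested genes were called. With the replicate block 5 were higher and 3 lower. The calls of Actn3, Des and Casq2 were lost with the iWAT libraries alone (adjusted p = 0.199, 0.152 and 0.245) and in 5, 1 and 10 of 16 omissions, and those of Actn3 and Des after rescaling (0.209 and 0.274). In eWAT with vehicle, Eef1a2 was called (log2 0.95, adjusted p = 0.00166; 4 with the block; 3.35% of tested genes), while Tcap, at 0.499 and 0.671 FPKM in K107R against 0.272 and 0.263 in WT, was not. In eWAT with rosiglitazone, Fbp2 and Eef1a2 were higher (0.86, adjusted p = 0.0142, for Eef1a2; with the block 4 higher and 1 lower; 0.907% of tested genes). A pseudocount of 0.1 ended the call of Eef1a2 under both treatments (adjusted p = 0.291 with rosiglitazone and 0.0884 with vehicle). With rosiglitazone it was also lost after rescaling (0.224), with the eWAT libraries alone (0.154) and in 4 of 16 omissions.

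For rosiglitazone against vehicle in K107R iWAT, Tcap (log2 -1.64, adjusted p = 0.00517), Casq1, the calsequestrin of fast muscle (-1.05, adjusted p = 0.00717), Apobec2 (-1.02, adjusted p = 0.000263) and Mybpc2 (-0.48, adjusted p = 0.00514) fell and Fbp2 rose (4.21% of tested genes were called; with the block 3 rose and 12 fell). Casq1 was also the 1 gene that fell in WT iWAT (-1.06, adjusted p = 0.0145; 1.68%; with the block 1 rose and 2 fell) and in WT eWAT (-0.99, adjusted p = 0.0472; 0.446%; 2 fell with the block). With the iWAT libraries alone the calls of Tcap, Casq1 and Mybpc2 in K107R iWAT were lost (adjusted p = 0.137, 0.172 and 0.088), as was that of Casq1 in WT iWAT (0.353). Rescaling ended those of Casq1 in both genotypes of iWAT (0.115 in K107R and 0.169 in WT) and of Mybpc2 (0.127). In K107R iWAT the calls of Casq1 and Mybpc2 each ended in 1 of 16 omissions, without K107R rosiglitazone number 2 (0.0554) and number 1 (0.0594). Casq1 was lost in 3 of 16 omissions in WT iWAT. In WT eWAT it was lost in 14 of 16, after rescaling (0.475) and with the eWAT libraries alone (0.151).

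With rosiglitazone against vehicle in K107R eWAT, Casq1 (log2 -0.81, adjusted p = 0.0219), Tnnt1, slow troponin T (-0.80, adjusted p = 0.0456), Casq2 (-0.61, adjusted p = 0.00777) and Jph2, which couples membranes for calcium release (-0.54, adjusted p = 0.0292), fell, and Fbp2 and the calcium-binding Srl (0.72, adjusted p = 0.0136) rose (4.89%; with the block 4 rose and 8 fell). Rescaling ended 5 of these 6 calls, all except Casq2, with adjusted p of 0.195 for Casq1, 0.147 for Tnnt1, 0.206 for Jph2, 0.0644 for Srl and 0.29 for Fbp2. With the eWAT libraries alone Tnnt1 and Jph2 were lost (0.0734 and 0.127), and a pseudocount of 0.1 ended the same calls (0.0652 and 0.0543). Of 16 omissions, 4 ended the call of Casq1, 14 that of Tnnt1, 3 that of Casq2, 5 that of Jph2 and 2 that of Srl, while Fbp2 was called in all.

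The K107R response differed from the WT response for 1 of 32 in iWAT, Apobec2 (log2 -0.89 ± 0.13 SE, adjusted p = 0.00996), where 0.966% of tested genes were called, and 1 was higher and 3 lower with the block. Its call was lost with the iWAT libraries alone (adjusted p = 0.26), after rescaling (0.278), with a pseudocount of 0.1 (0.342) and in 3 of 16 omissions. In eWAT limma called 0 of 32 (4 at an unadjusted p under 0.05), and 1 higher and 1 lower with the block (2.53% of tested genes). Between depots, 7 of 32 were higher and 11 lower in eWAT (10 and 17 with the block), among 32.4% of tested genes called. Of the genes called higher in K107R iWAT with vehicle, Eef1a2 and Actn3 were higher in eWAT (log2 1.66 and 0.32, limma adjusted p = 3.91e-08 and 0.0195). Rescaling ended the call of Actn3 (0.272). Tcap, Apobec2 and Mybpc2 were lower in eWAT (log2 -0.80, -0.65 and -0.38, limma adjusted p = 0.000682, 1.95e-06 and 2.05e-05).

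Muscle isoforms did not all follow the 10 genes. Fbp2, the muscle fructose bisphosphatase, was at 16.2 and 19.1 FPKM in eWAT of K107R rosiglitazone and 5.96 and 7.47 in K107R vehicle, against 3.85 and 5.23 in WT rosiglitazone and 3.22 and 3.82 in WT vehicle. Its levels in iWAT were 25.6 and 31.0 FPKM in K107R rosiglitazone and 8.62 and 8.73 in K107R vehicle, against 6.99 and 9.43 in WT rosiglitazone and 5.90 and 6.87 in WT vehicle. It was thus highest in iWAT K107R rosiglitazone, the second highest group for most of the 10 genes. Unlike them, it rose with rosiglitazone in K107R (limma log2 1.28 in eWAT, adjusted p = 0.00355, and 1.59 in iWAT, adjusted p = 0.00193). Rescaling ended both calls (adjusted p = 0.29 in eWAT and 0.0684 in iWAT), and the iWAT libraries alone the second (0.0655). With rosiglitazone it was higher in K107R than in WT (1.76 in eWAT, adjusted p = 0.00262, and 1.67 in iWAT, adjusted p = 0.000831). Rescaling ended the eWAT call (adjusted p = 0.132), and no alternative ended the iWAT one.

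Myl1, the fast essential light chain, was at 78.4 and 48.7 FPKM in iWAT K107R vehicle, against 69.2 and 49.4 in WT vehicle. Its level was thus above those of all 10 genes in the same libraries, with overlap between the genotypes. Under the replicate block Myl1 rose with rosiglitazone in K107R (log2 0.71 in eWAT, limma adjusted p = 0.00138, and 0.63 in iWAT, 0.00324). Without the block neither change was called (0.409 and 0.466). The slow troponins Tnnc1 and Tnnt1 were between 0.501 and 2.13 FPKM in all libraries, with Tnnt1 at 1.69 and 1.36 in iWAT K107R vehicle, against 1.02 and 1.05 in WT vehicle. Neither was called between the genotypes in either depot. Cox6a2, from the energy supply genes, was at 8.29 and 4.06 FPKM in iWAT K107R vehicle, against 1.45 and 1.07 in WT vehicle. It was called with the replicate block (log2 1.61, limma adjusted p = 0.00154) and not without it (0.507).

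**Figure D3:**
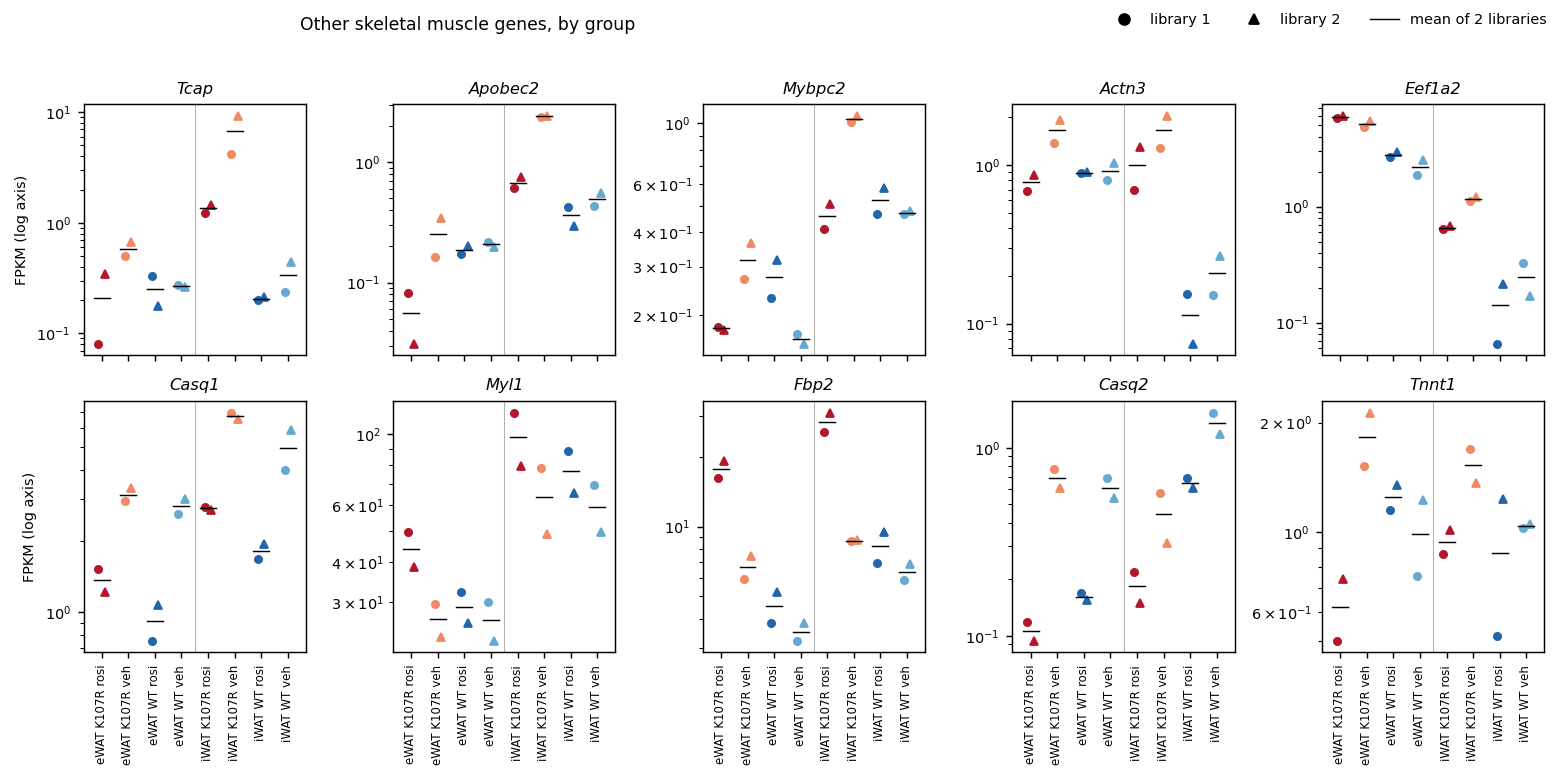
FPKM (log axis, drawn as in the plot of the 10 genes) of 10 other skeletal muscle genes in the 8 groups. Tcap and Apobec2 peak in iWAT K107R vehicle, Fbp2 peaks at 25.6 and 31.0 FPKM in iWAT K107R rosiglitazone, and Casq2 is lower in K107R than in WT iWAT.

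Markers of other cell types differed in some of the same comparisons and not in others, and their part in the results was not tested. The 10 fast muscle genes summed to between 133 and 150.2 FPKM in iWAT K107R vehicle, against between 27.5 and 31.8 in WT vehicle. Over the same libraries 12 brown and beige fat genes, such as Ucp1 and Cidea, summed to between 149 and 160 FPKM, against between 185 and 197 in WT vehicle, and limma called 0 of 12 (5 at an unadjusted p under 0.05, 1 lower with the block). Rosiglitazone K107R iWAT had the higher beige sum, between 361 and 387 FPKM, and the lower muscle sum, between 36.5 and 53.5 FPKM. Of 16 fat cell genes limma called 0 between the genotypes in iWAT with vehicle (2 at an unadjusted p under 0.05), and 1 was higher and 1 lower with the block. Creatine cycle genes of fat other than Ckm, 5 of 6 listed, summed to between 87.8 and 100.3 FPKM in iWAT K107R vehicle, against between 80.8 and 93.0 in WT vehicle, with 0 called by limma (1 at an unadjusted p under 0.05, 1 lower with the block).

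In iWAT, 10 lymphocyte genes summed to between 106 and 144 FPKM in K107R vehicle, against between 171 and 230.1 in WT vehicle, and to between 35.7 and 45.0 FPKM in K107R rosiglitazone, against between 290 and 343 in WT rosiglitazone. Of these 10, limma called 0 with vehicle (5 at an unadjusted p under 0.05, 3 lower with the block). With rosiglitazone 8 were lower in K107R, where 4.13% of tested genes were called. Smooth muscle genes, 9 in all, summed to between 117 and 201 FPKM in iWAT K107R vehicle, against between 149 and 251 in WT vehicle. The 7 nerve genes summed to between 84.1 and 219.8 FPKM, against between 65.0 and 191 in WT vehicle. The number 1 library had the higher sum in each of these groups. At each library number the smooth muscle sum was thus lower, and the nerve sum higher, in K107R. Neither list had a called gene in that comparison (2 smooth muscle and 0 nerve genes at an unadjusted p under 0.05, and 0 with the block). Of 13 genes of muscle stem cells and forming muscle, 1, Mef2c, was in the table.

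In eWAT K107R vehicle, where the 10 genes summed to between 25.3 and 32.9 FPKM against between 14.4 and 19.2 in WT vehicle, the epididymis sum given above was accompanied by 9 epithelium genes at between 137 and 145 FPKM, against between 22.5 and 22.8 in WT vehicle. All 5 epididymis genes and 7 of 9 epithelium genes (9 with the block) were called higher there, where limma called 3.35% of tested genes. The 5 epididymis genes, and Epcam, Cdh1, Krt5 and Cldn3 of the epithelium, would not have passed the filter without those K107R libraries. Their calls there are thus not independent of the filter. The 10 lymphocyte genes summed to between 10.97 and 14.6 FPKM in eWAT K107R vehicle, against between 31.3 and 41.4 in WT vehicle, and 5 were called lower (8 with the block, and 1, Mzb1, of the 5 after rescaling). The smooth muscle genes summed to between 113 and 186 FPKM, against between 121 and 154 in WT vehicle, with 2 of 9 called higher. The brown and beige genes summed to between 81.9 and 87.6 FPKM, against between 61.1 and 64.5 in WT vehicle. Of these 2 of 12 were called higher, Cited1 and Cidea (5 with the block). The limma call of Cidea was lost after rescaling (adjusted p = 0.26) and with the eWAT libraries alone (0.207), while that of Cited1 held in both. Of the fat cell genes 1 of 16, Gpd1, was called higher (3 with the block). Its limma call was lost after rescaling (adjusted p = 0.356) and with the eWAT libraries alone (0.097). Tnnt2, heart troponin T, was at 1.41 and 5.42 FPKM in those K107R libraries and higher than in WT (log2 1.86 ± 0.33, limma adjusted p = 0.00835, and 0.097 with the eWAT libraries alone). It passed the filter through those K107R libraries alone, so this call is not independent of the filter. In iWAT the epididymis genes summed to at most 0.204 FPKM and 4 of the 5 were listed at 0 in both K107R vehicle libraries. Of the epithelium genes 1 of 9, Krt5, was called higher in K107R vehicle iWAT, where 0.578% of tested genes were called. Rescaling ended that limma call (adjusted p = 0.121).

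**Figure D4:**
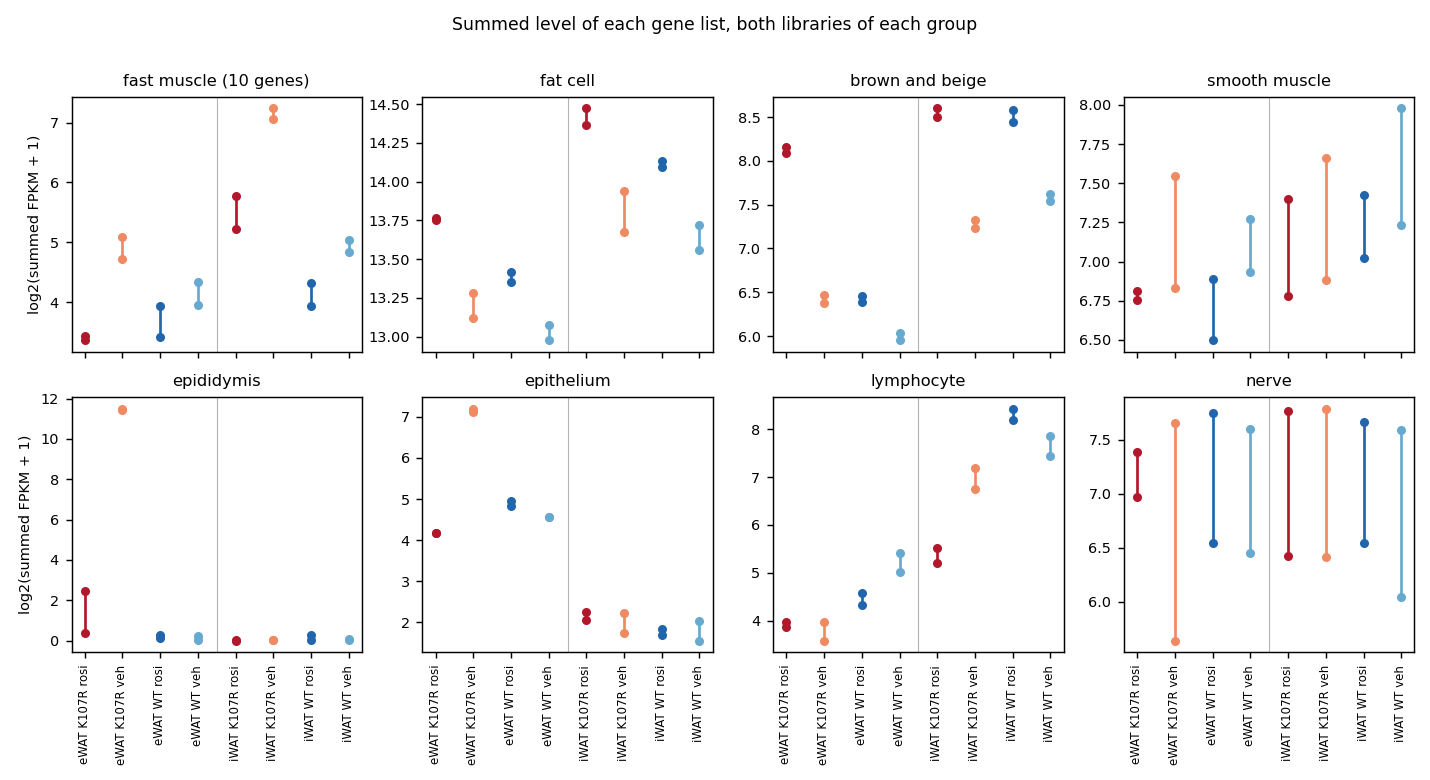
Summed level of 8 gene lists as log2(summed FPKM + 1), with both libraries of each group joined by a line. The fast muscle sum is highest in iWAT K107R vehicle, the brown and beige sum in rosiglitazone iWAT, and the epididymis sum in eWAT K107R vehicle.

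The genes most like the 10 were found by Pearson's r between log2(FPKM + 1) of a gene and the mean of log2(FPKM + 1) over the 10, across the 16 libraries, among 10479 other genes that reached 5 FPKM in a library. Libraries of a group share their genotype and treatment and the 2 depots differ, so the values describe and carry no p. Tcap was first (r = 0.956, and 0.785 within the 8 eWAT and 0.968 within the 8 iWAT libraries). Then came Sfrp5, a secreted Wnt inhibitor of fat cells (0.852), Mbd1 (0.823), Prkag3, a regulatory subunit of AMPK (0.810), Map6 (0.805), H19, an imprinted RNA (0.801), Adamtsl4 (0.780), Map1a (0.772), Rufy4 (0.769) and Wisp2 (0.762). H19 was at 8.99 and 6.22 FPKM in iWAT K107R vehicle, against 1.60 and 0.855 in WT vehicle, and Sfrp5 at 409 and 368 FPKM, against 247 and 242. Map1a and Rufy4 had an r of 0.287 and 0.238 within eWAT, far below that within iWAT (0.744 and 0.789).

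Library number touched the 10 genes unequally. The median ratio of number 2 to number 1 was 2.30 for Tnnc2, 1.75 for Tnni2 and 1.65 for Tnnt3, each above 1 in 7 of 8 groups, but 0.734 for Ckm and 0.754 for Mylpf, each above 1 in 1 of 8. Acta1 was higher in number 2 in 8 of 8 groups, by a median of 1.15 times. Comparisons between genotypes hold 1 library of each number on both sides, so where groups do not overlap the difference is present within each number.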

How the data were processed

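Polyadenylated RNA of 16 fat samples was read as 75-nt single ends from stranded libraries made of 4 ug total RNA, per the labels' protocols. The deposited values are FPKM for 14023 genes, used as the authors gave them, and each gene reached 1 FPKM in at least 1 library. The tools were Cufflinks 2.2.1, TopHat2 2.0.12 and CASAVA 1.8.2 with mm10, per the submitters' processing notes. Annotation and scaling are not given in the sources used here. FPKM carry no counts, so depth and counting error are unknown.

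Genes with 1 FPKM or more in at least 2 libraries (13669) were fitted as log2(FPKM + 1), which understates changes of low genes, with limma 3.58.1 (R 4.3.3), 1 mean per group, a mean-variance trend and two-sided p adjusted after Benjamini and Hochberg over all genes of a contrast (11 contrasts). A gene was called at an adjusted p under 0.05. A run on simulated data checked only that the fit recovers planted changes. Those data held less spread than the real libraries for most genes and no effect of library number, so they do not show the error rate here. It is not stated that the 2 libraries of a group are separate mice, and each p-value rests on library spread that may be technical. The 10 genes and all lists were chosen with earlier results of these data known. All 10 passed the filter, Mb and Myh1 through 1 group. Apobec2, Mybpc2, Casq2 and Tnnt2 also passed through 1 group. The epididymis genes, and Epcam, Cdh1, Krt5 and Cldn3, would not have passed without the eWAT K107R vehicle libraries. Named beside the 10 are up to 4 called genes per list and contrast with the largest change, and the slow counterparts. The 10 genes of highest correlation are also named, as are list genes of highest level where none was called. Apart from these, a few were named after their values were seen.

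Replicate numbers come from the labels. Deviations of same-numbered libraries correlated above 0.1 in all 28 pairs of groups (0.121 to 0.791, median 0.573), so the numbers pair the libraries. A fit with the number as a block is given for counts that it changes and for a few genes. That block takes the same shift in every group, though the Actb ratio of number 2 to number 1 ran from 0.0282 to 0.643. All other p-values of single genes come from fits without the block, where the spread includes the difference between numbers. Other alternatives were a pseudocount of 0.1, no filter, median-ratio rescaling, the libraries of 1 depot, each library left out, and no eWAT K107R vehicle libraries. Positions and shared 75-base stretches come from GENCODE transcripts on GRCm38, the assembly of mm10. Promoters come from RefSeq.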

Additional observations from a re-analysis of the deposited data

Results flagged for a closer look

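Apobec2, a muscle gene outside the 10, differed in its response to rosiglitazone between the genotypes in iWAT (log2 -0.89 ± 0.13 SE for the K107R response minus the WT response, limma adjusted p = 0.00996). It was at 0.609 and 0.748 FPKM in K107R rosiglitazone and 2.39 and 2.43 in K107R vehicle, against 0.426 and 0.298 in WT rosiglitazone and 0.429 and 0.554 in WT vehicle. Those K107R vehicle libraries alone took it past the filter, so the call is not independent of the filter. A fit without the filter does not lift this limit, since each deposited gene reached 1 FPKM in at least 1 library. The call was lost with the iWAT libraries alone (adjusted p = 0.26), after rescaling by median ratios (0.278) and with a pseudocount of 0.1 (0.342). It was also lost without number 1 of K107R rosiglitazone (0.0594), of WT rosiglitazone (0.0576) or of WT vehicle (0.0511), and held in the other 13 omissions, with the replicate block (0.00372) and without the filter (0.0113). The same contrast was not called in eWAT, where Apobec2 was at or under 0.342 FPKM. Groups of 2 libraries were too small to look for outlying libraries.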

How the results depend on the processing

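The direction of each of the 10 genes' differences over 0.5 in size was kept under every alternative (0 of 1520 values changed sign), and 19 smaller ones changed sign. A pseudocount of 0.1 moved the median log2 difference of the 10 genes to -1.998 (eWAT, K107R rosiglitazone against vehicle), -0.28 and 1.63 (eWAT, K107R against WT with rosiglitazone and with vehicle), -2.01 (eWAT difference of responses), -1.55 and -0.53 (iWAT, rosiglitazone against vehicle in K107R and in WT), 2.16 and 3.55 (iWAT, K107R against WT with rosiglitazone and with vehicle) and -1.75 (eWAT against iWAT). Rescaling moved the median of all genes by over 0.1 in 4 contrasts, from 0.17 to 0.00 for the first of these, and the directions of the 10 genes stayed.

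The counts of other muscle genes depended on the fit. With the replicate block the numbers higher and lower became 4 and 8 for rosiglitazone in K107R eWAT, 2 lower in WT eWAT, 4 and 1 between genotypes in eWAT with rosiglitazone, 4 higher with vehicle, and 1 and 1 for the eWAT difference of responses. In iWAT they became 3 and 12 for rosiglitazone in K107R, 1 and 2 in WT, 5 higher between genotypes with rosiglitazone, 8 higher with vehicle, 1 and 3 for the difference of responses, and 17 were lower between depots. The block changed no other count by over 1.5 times.

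With the libraries of 1 depot alone, in eWAT 2 were lower with rosiglitazone in K107R, 0 in WT, and 1 was higher between genotypes with rosiglitazone. In iWAT 0 were higher and 1 lower with rosiglitazone in K107R, 0 lower in WT, 1 higher and 0 lower between genotypes with rosiglitazone and again with vehicle, and 0 lower for the difference of responses. Rescaling gave 0 higher for rosiglitazone in K107R eWAT, 0 and 2 higher between genotypes in eWAT with rosiglitazone and with vehicle, 1 lower and 3 higher in iWAT with rosiglitazone and with vehicle, and 0 for the iWAT difference of responses. A pseudocount of 0.1 gave 1 and 0 higher between genotypes in eWAT with rosiglitazone and with vehicle, 4 higher in iWAT with rosiglitazone, 0 lower with vehicle and 0 for the iWAT difference of responses. Without the filter 2 were lower with rosiglitazone in WT eWAT and 1 between genotypes in eWAT with vehicle. Without the eWAT K107R vehicle libraries 0 were lower with rosiglitazone in WT eWAT and 2 for the iWAT difference of responses.

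With 1 library left out, the 10-gene median lay between -1.62 and -1.31 for rosiglitazone in K107R iWAT, between 1.18 and 1.43 and between 2.14 and 2.37 between genotypes in iWAT with rosiglitazone and with vehicle, and between -1.32 and -1.03 for the iWAT difference of responses. Other muscle genes then numbered 1 to 2 higher and 0 to 4 lower for rosiglitazone in K107R eWAT, 0 to 1 lower in WT eWAT, 1 to 2 higher between genotypes in eWAT with rosiglitazone, and 0 to 2 lower with rosiglitazone in WT iWAT. Between genotypes in iWAT they numbered 1 to 3 higher and 0 to 2 lower with rosiglitazone, and 2 to 5 higher and 0 to 1 lower with vehicle, where 12 of 16 omissions gave 3 or fewer higher. For the iWAT difference of responses 0 to 2 were lower, and 0, Apobec2 being lost, without number 1 of K107R rosiglitazone, of WT rosiglitazone or of WT vehicle. An omission leaves a lone library, taken to vary like the other groups. The causes were not tested. With 2 libraries a group and unknown depth, genes under 1 FPKM are the least certain.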
